A study of Mus musculus with 2 samples.

Results

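The AP-1 transcription factor genes examined here were Fos, Fosb, Fosl1, Fosl2, Jun, Junb, Jund, Atf3, Batf and Batf3. Chromatin accessibility at these 10 genes, of 15877 protein-coding genes with a promoter region, was followed in single-cell ATAC-seq of mouse embryonic back skin. Their regions were taken by position alone: peaks within 500 bp of a transcription start, inside the gene, or within 50 kb of it, which gave 355 merged regions of 369634 in all. Of these, 250 had a peak from each library and are called shared regions. Shared regions comprised 10 promoter regions, 135 distal ones, over 2000 bp away from every annotated start, 60 regions within 500 bp of another annotated start and 45 regions between those distances. The windows of Atf3 and Batf3 overlap, so 9 regions belong to both and were counted once in totals.

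The study used epithelium-specific deletion of Mof, the gene of a histone H4 lysine 16 acetyltransferase, to ask how accessibility of promoters and enhancers responds. Back skin was taken at E16.5, with a single library for each genotype. MOF cKO embryos were MOFfl/fl/K14Cre, a Cre driven by the keratin 14 promoter of epithelial cells, and the labels name the other genotype only as Control. The study kept littermates, wildtype or heterozygous, as its controls and does not say which gave this library. How many embryos went into a library is not given in the sources used here. Cells of both libraries carried the K14-H2BGFP reporter and were sorted into GFP-positive and GFP-negative fractions, then recombined to enrich epithelial cells. With 1 library per genotype no difference could be tested, and every interval is a 95% interval for counting error alone, without the variation between embryos or libraries.

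AP-1 is a dimer of leucine zipper proteins, usually one of the Fos group (Fos, Fosb, Fosl1, Fosl2) with one of the Jun group (Jun, Junb, Jund). It binds the palindrome-like element TGACTCA, which reads TGAGTCA on the other strand. Atf3, Batf and Batf3 are related zipper proteins that pair with Jun proteins. Several of these genes are immediate early genes, switched on within minutes by growth factors, stress or wounding through MAP kinases. In the epidermis AP-1 acts on genes of keratinocyte proliferation, cornification and matrix remodelling.

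The distal sequences below are the centres of the 3 member regions with the largest increase and the 3 with the largest decrease in epithelial-like cells among those with at least 500 cut sites in that class. The Fos promoter is shown because Fos had the largest promoter decrease. Distal sequences come from the GRCm38.p6 genome on the plus strand, and the promoter (250 bases before the start to 50 after it) from RefSeq on the same build. Capitals mark every AP-1 element TGACTCA or TGAGTCA. The region downstream of Fos holds 1 of each, and the other 6 sequences hold neither those letters nor the related cyclic AMP response element TGACGTCA.
Jun distal region, increase, chr4:95026036-95026335 (plus strand): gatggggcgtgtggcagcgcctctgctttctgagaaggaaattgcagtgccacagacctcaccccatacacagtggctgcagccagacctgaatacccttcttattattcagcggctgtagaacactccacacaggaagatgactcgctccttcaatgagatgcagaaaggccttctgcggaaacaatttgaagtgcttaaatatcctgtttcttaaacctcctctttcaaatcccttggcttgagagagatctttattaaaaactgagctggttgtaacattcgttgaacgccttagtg
Fos distal region, increase, chr12:85519590-85519889 (plus strand): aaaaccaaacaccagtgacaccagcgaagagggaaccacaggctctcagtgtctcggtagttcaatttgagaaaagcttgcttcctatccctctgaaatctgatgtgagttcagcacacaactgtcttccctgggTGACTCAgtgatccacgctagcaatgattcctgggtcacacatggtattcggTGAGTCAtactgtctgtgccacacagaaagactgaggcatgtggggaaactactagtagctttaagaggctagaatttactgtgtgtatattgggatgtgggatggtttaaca
Jun distal region, increase, chr4:95084247-95084546 (plus strand): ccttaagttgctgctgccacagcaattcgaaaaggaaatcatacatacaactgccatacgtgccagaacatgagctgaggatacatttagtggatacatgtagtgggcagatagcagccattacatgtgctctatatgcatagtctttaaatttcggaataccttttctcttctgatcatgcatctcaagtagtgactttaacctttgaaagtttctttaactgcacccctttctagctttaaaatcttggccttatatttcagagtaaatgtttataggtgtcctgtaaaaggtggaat
Fos distal region, decrease, chr12:85451986-85452285 (plus strand): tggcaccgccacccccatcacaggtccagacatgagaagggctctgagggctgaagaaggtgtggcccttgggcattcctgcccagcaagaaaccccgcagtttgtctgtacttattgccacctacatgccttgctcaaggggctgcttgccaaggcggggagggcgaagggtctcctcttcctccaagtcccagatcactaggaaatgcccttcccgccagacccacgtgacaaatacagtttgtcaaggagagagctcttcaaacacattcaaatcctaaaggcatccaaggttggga
Batf distal region, decrease, chr12:85656940-85657239 (plus strand): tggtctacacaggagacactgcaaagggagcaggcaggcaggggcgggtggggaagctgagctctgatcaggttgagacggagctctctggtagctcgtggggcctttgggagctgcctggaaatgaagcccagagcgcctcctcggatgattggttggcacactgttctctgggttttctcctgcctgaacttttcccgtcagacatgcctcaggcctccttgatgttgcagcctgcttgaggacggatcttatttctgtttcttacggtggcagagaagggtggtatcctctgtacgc
Fosl2 distal region, decrease, chr5:32199313-32199612 (plus strand): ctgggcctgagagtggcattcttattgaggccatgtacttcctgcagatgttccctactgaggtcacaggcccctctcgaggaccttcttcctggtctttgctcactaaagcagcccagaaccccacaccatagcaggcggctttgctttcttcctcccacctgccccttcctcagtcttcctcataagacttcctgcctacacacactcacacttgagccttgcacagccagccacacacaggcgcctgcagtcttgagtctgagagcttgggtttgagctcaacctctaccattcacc
Fos promoter, chr12:85473640-85473939 (plus strand): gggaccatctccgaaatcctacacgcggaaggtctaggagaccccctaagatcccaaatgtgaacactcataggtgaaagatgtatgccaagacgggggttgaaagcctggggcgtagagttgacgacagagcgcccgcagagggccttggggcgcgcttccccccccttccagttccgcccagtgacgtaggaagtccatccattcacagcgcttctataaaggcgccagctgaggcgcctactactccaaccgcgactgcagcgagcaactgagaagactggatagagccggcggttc

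RefSeq promoter windows were at hand for 9 of the 10 genes, not for Fosl1. None of the 9 held an exact match to the AP-1 element or to the cyclic AMP response element on either strand. Of 32851 mouse promoter windows of this length 5.20% and 1.79% did, so 0 of 9 is near the background. Variants of these letters were not searched. The windows of 7 genes overlapped a peak in both libraries. Those of Fosl2 and Jund overlapped a peak in neither, where the annotated starts differ: the promoter regions measured here follow GENCODE and lay at chr5:32134933-32136103 for Fosl2 and chr8:70698337-70699404 for Jund.

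Levels (CPM) are transposition cut sites scaled to a total of 1000000 over the shared regions of a cell class, and changes are log2(MOF cKO / Control) of these. The libraries held 2481 and 4348 cells with a median of 64436 and 66240 sites per cell, and 21 barcodes occurred in both. Epithelial-like cells, named from marker promoters, numbered 1696 in Control and 2644 in MOF cKO, and fibroblast-like cells 659 and 1252. The share of sites lying at promoters was 37.9% (Control) and 28.8% (MOF cKO) in the epithelial-like class. For fibroblast-like cells it was 41.9% and 40.9%. Epithelial-like cells of the genotypes lay in different clusters: 1, 6, 8 and 10 held 770, 522, 300 and 103 Control cells, and 0, 3, 5 and 13 held 1208, 743, 574 and 74 MOF cKO cells. In epithelial-like cells all 10 fibroblast markers were measured, and their promoters summed to 139 CPM in Control and 107 in MOF cKO. The class's own 10 epithelial markers summed to 297 and 257 CPM. The 10 immune markers summed to 24.99 and 38.0 CPM and the 8 hair follicle markers to 239 and 168 CPM, and the 5 measured of 10 muscle markers to 14.1 and 27.3 CPM. The part of these differences in the results was not tested.

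In epithelial-like cells the promoters of 9 of the 10 genes had a lower level in MOF cKO, and Fosl1 alone of the 10 did not. Across all promoters 85.8% were lower, with a median log2 change of −0.42, against a median of −0.52 over the 10 genes. The members' count is thus near the background. None of the 10 reached 1/2 or 2-fold, limits passed by 2.51% and 2.22% of all promoters. Each promoter region overlaps an exon of its own gene, that of Jund also an exon of Gm11175, and they lie at chr12:85473418-85474334 for Fos, chr7:19309702-19310720 for Fosb, chr19:5447216-5448134 for Fosl1, chr4:95051907-95052921 for Jun, chr8:84978290-84979099 for Junb, chr1:191182987-191183895 for Atf3, chr12:85686367-85687260 for Batf and chr1:191097839-191098837 for Batf3 (mm10).

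Among the Fos group, Fos, the founding immediate early member, had 67.5 CPM in Control (95% Poisson interval 65.4 to 69.7) against 39.2 in the MOF cKO library (38.0 to 40.5), a log2 change of −0.78 (−0.85 to −0.72). Its change stood at the 6.01 percentile of all promoters. Fosb, another rapidly induced gene, had 39.1 and 24.1 CPM, a change of −0.70 (−0.78 to −0.62). Fosl2, which encodes Fra-2, had 87.5 and 59.0 CPM, a change of −0.57 (−0.62 to −0.51). Fosl1, which encodes Fra-1, had 31.4 CPM (29.99 to 32.9) and 33.0 (31.9 to 34.1), a change of 0.07 (−0.01 to 0.15), and stood at the 88.0 percentile. Its direction depends on the scaling, with changes from −0.08 to 0.25. The intervals of Fos, Fosb and Fosl2 did not overlap between libraries, whereas those of Fosl1 did.

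Among the Jun group, Jun, the partner of Fos in the classical dimer, had 107 and 65.2 CPM, a change of −0.72 (−0.77 to −0.67). Junb, which can oppose Jun at some targets, had 40.1 and 28.9 CPM, a change of −0.48 (−0.55 to −0.40), which was −0.21 with a promoter window of 1000 bp. Jund, the broadly expressed member, had 85.8 and 59.8 CPM, a change of −0.52 (−0.58 to −0.47). Scaled to region length, Jun stood highest of the 10 genes in both libraries, at 106 CPM per kb in Control and 64.2 in MOF cKO. Atf3, a stress-induced factor, came next in Control with 89.2 CPM per kb.

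Of the remaining genes, Atf3 had 81.1 and 56.5 CPM, a change of −0.52 (−0.58 to −0.47). Batf and Batf3, best known from lymphocytes and dendritic cells, were the least accessible per length, at 4.65 and 8.20 CPM per kb in Control. Batf had 4.16 and 2.89 CPM from 487 and 598 sites, a change of −0.52 (−0.78 to −0.28), and Batf3 had 8.19 and 6.37 CPM, a change of −0.36 (−0.53 to −0.19), which was −0.17 with thinned cells and −0.18 with sites per cell. Atf3 has a further start farther upstream. A region there, at chr1:191217745-191218654, was called only in MOF cKO, where it held 436 sites, so it has no Control value.

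Fos, Fosb, Fosl2, Jun, Junb, Jund and Atf3 were higher in epithelial-like clusters 1, 6, 8 and 10 than in 0, 3 and 5. Fosl1, Batf and Batf3 did not keep this order. How many of all promoters kept it was not computed. The share of sites lying at promoters was 36.9%, 38.56%, 41.43% and 38.93% in clusters 1, 6, 8 and 10. In clusters 0, 3 and 5 it was 28.05%, 28.51% and 30.04%. Each of these clusters holds mostly cells of a single library, so the order repeats the difference between libraries. The Fos promoter had 66.4, 67.7, 62.6 and 68.9 CPM in clusters 1, 6, 8 and 10, made mostly of Control cells, and 37.3, 38.6 and 43.7 in clusters 0, 3 and 5, made almost wholly of MOF cKO cells. The interval of the shallow cluster 8 (44.8 to 85.1) overlapped that of cluster 5. The smaller MOF cKO cluster 13, whose cells had 41.3% of their sites at promoters, had 53.3 CPM at Fos. For Jun the values were 104, 109, 78.1 and 112 against 62.2, 63.3 and 72.9, with 98.3 in cluster 13, and the interval of cluster 8 (58.0 to 103) overlapped those of all 3 MOF cKO clusters. In cluster 13 Junb had 73.7 CPM, Jund 136 and Fosl2 116, above the 36.1, 83.4 and 85.9 of the Control-rich cluster 1 with no overlap of intervals. Batf3 had 5.45, 10.9, 9.28 and 10.5 CPM in clusters 1, 6, 8 and 10 and 6.27, 6.14 and 6.28 in clusters 0, 3 and 5, with 11.4 in cluster 13. Clusters 6 and 10 lay above those 3 with no overlap of intervals, whereas cluster 1 overlapped all 3. Batf had 2.99, 5.75, 3.09 and 4.32 CPM in the former 4 and 2.95, 2.07 and 3.69 in the latter 3. Its 0 in cluster 13 allows up to 4.42 CPM. For Batf, cluster 6 lay above clusters 0, 3 and 5 with no overlap, and the interval of cluster 1 overlapped each of them.

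**Figure D1:**
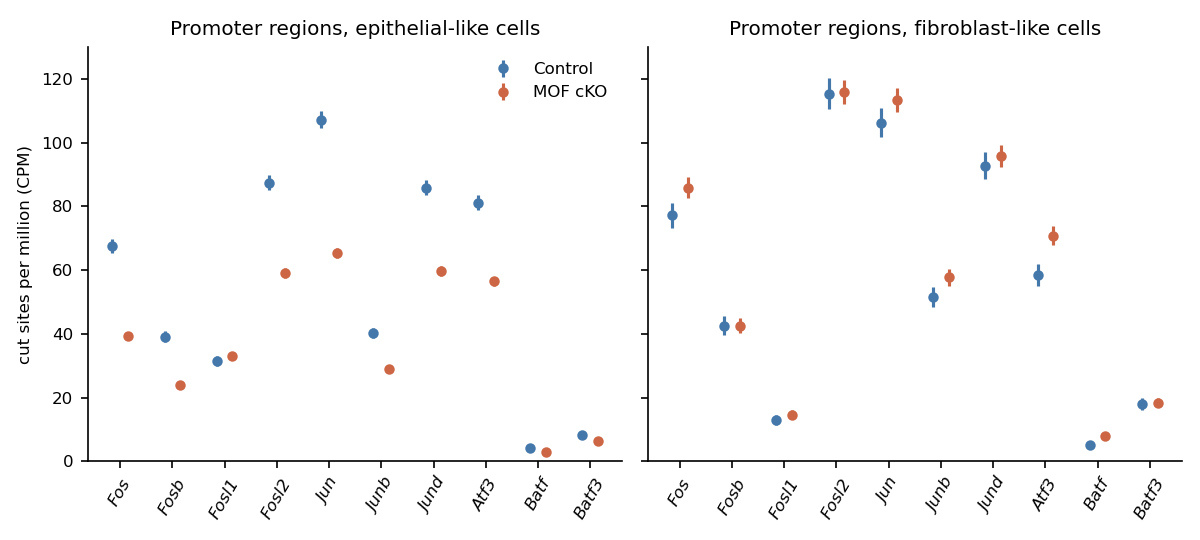
Promoter level of each gene in CPM (vertical axis, from 0) in epithelial-like (left) and fibroblast-like cells (right), Control and MOF cKO; points are class sums of 1 library each and bars are 95% Poisson intervals for counting error. In epithelial-like cells 9 genes are lower in MOF cKO and Fosl1 is not. In fibroblast-like cells no gene is lower on this scale. In sites per cell 9 genes are lower there, against 89.99% of all promoters.

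In fibroblast-like cells, which are not the keratin 14 lineage, no member promoter was lower in MOF cKO, against 58.4% of all promoters. The median change over the 10 genes was 0.12, and over all promoters −0.03. Past 2-fold in either direction there was no member, against 1.88% of all promoters at 2-fold or more and 0.838% at 1/2 or less. These directions depend on the scaling: 4 of the 10 were lower with all peaks of a library as the total, and 9 with sites per cell. Of all promoters 70.1% and 89.99% were lower under these scalings, so 9 of 10 is near the background and 4 of 10 below it. The Fos promoter had 77.2 and 85.9 CPM, a change of 0.15 (0.06 to 0.25). Atf3 had 58.5 and 70.8 CPM, a change of 0.28 (0.17 to 0.38). Batf had the largest value, 5.11 CPM from 203 sites and 7.94 from 493 sites, a change of 0.64 (0.29 to 0.97) that was 0.14 with cells thinned to 5000 sites, and stood at the 96.1 percentile. Fosb, Fosl2, Jund, Batf3 and Fosl1 had intervals that included 0. Fibroblast-like cells were themselves split, so changes were also taken inside clusters that held cells of both libraries. In cluster 2 (127 and 619 cells) Fos had −0.04 (−0.22 to 0.14) and Atf3 −0.27 (−0.45 to −0.08), and in cluster 4 (530 and 118 cells) −0.06 (−0.27 to 0.14) and 0.28 (0.05 to 0.51). Below 0 were 6 of the 10 genes in cluster 2, against 66.5% of all promoters there, and 2 of the 10 in cluster 4, against 48.7%. The median over all promoters was −0.09 in cluster 2 and 0.01 in cluster 4, and 2 and 3 of the 10 genes lay below it. Fosb had −0.33 (−0.57 to −0.08) in cluster 2 and 0.28 (0.03 to 0.54) in cluster 4. Fos thus did not differ from 0 beyond counting error in either cluster, and Atf3 and Fosb lay on opposite sides of 0. Batf had 0.39 (−0.32 to 1.18) in cluster 2 and 0.97 (0.33 to 1.59) in cluster 4.

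Across the cell classes the Batf promoter was highest in immune-like cells, at 13.6 CPM in Control and 15.4 in MOF cKO, and its interval overlapped those of fibroblast-like and epithelial-like cells in neither library. In Control it overlapped those of the mural-like and endothelial-like classes and of cluster 15, which had 2 sites or fewer. In endothelial-like cells, of which there were 9 and 26, no Batf site was counted, which allows up to 8.91 and 4.96 CPM (exact upper limits). Fosl1 was highest in epithelial-like cells of both libraries, 31.4 and 33.0 CPM against 12.9 and 14.5 in fibroblast-like cells. Its Control interval overlapped those of mural-like, endothelial-like and immune-like cells and of cluster 15, and its MOF cKO interval that of immune-like cells. Batf3 ran the other way, with 8.19 and 6.37 CPM in epithelial-like cells, its lowest class in both libraries, and 35.0 and 32.9 in endothelial-like cells. Its Control interval in epithelial-like cells overlapped those of immune-like cells and cluster 12. The endothelial-like values rest on 29 and 49 sites, and mural-like cells of MOF cKO were higher, at 33.6 CPM.

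Promoters of Fos, Fosb, Fosl2, Junb, Jund, Batf and Batf3 had a higher level in fibroblast-like than in epithelial-like cells of Control, with overlapping intervals for Fosb and Batf. In MOF cKO, Jun and Atf3 joined them, so that 9 of the 10 did. Over all promoters 67.4% were higher in fibroblast-like cells of Control and 80.0% in MOF cKO, so the 7 and 9 members are near the background. Jun moved from 107 against 106 CPM, with overlapping intervals, to 65.2 against 113. Junb was highest in immune-like cells, at 85.7 CPM in Control and 102 in MOF cKO, with intervals that overlapped those of mural-like cells and cluster 15 in both libraries, and of endothelial-like cells and cluster 12 in Control. Small classes overlapped their neighbours in the order for most genes. Cluster 12, with markers of more than 1 class, and cluster 15, with too few markers of any, were left unnamed.

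**Figure D2:**
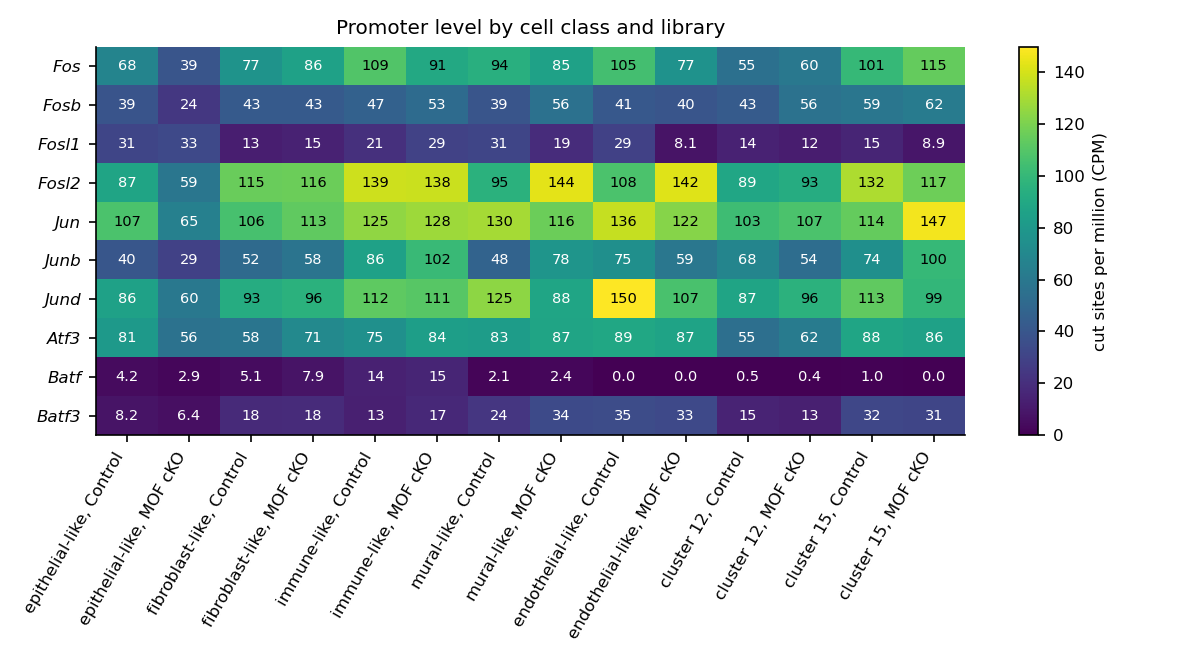
Promoter level of each gene (rows) in each cell class and library (columns), in CPM, with the value printed in each field. Epithelial-like MOF cKO cells form a column of low values for most genes, Fosl1 is highest in epithelial-like cells, and Batf stands out in immune-like cells.

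Genes whose promoters varied most alike over 10 class and library sums, from 5 classes with at least 20 cells in each library, were found by Pearson correlation of log2(CPM + 5). These points share libraries and depth, so the values describe likeness only. For Fos they were Rab5a (r = 0.973), Smarca5 (0.971) and Cdc26 (0.970). For Jun they were Acin1 (0.980), Zfp46 (0.971) and Zfp628 (0.971), and for Junb Pim3 (0.981), Gclm (0.981) and Nubp2 (0.979). Batf was most like Trim34a (0.964), Zc3hav1 (0.962) and Trim12c (0.956). Fosl1 was most like 9230104L09Rik (0.945), Aif1 (0.942) and M1ap (0.942). Other members had their nearest genes between 0.912 (Atf3 with Ndufa5) and 0.991 (Batf3 with Zfp106).

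Distal regions of these genes changed in both directions in epithelial-like cells. Of the 135, 22 were at 2-fold or more (16.3%, against 18.6% of all distal regions) and 17 at 1/2 or less (12.6%, against 13.8%). The balance depends on the scaling: the counts were 18 and 21 with all peaks of a library as the total (16.4% and 17.9% of all distal regions), 28 and 13 by median of ratios (21.4% and 10.2%) and 28 and 12 with sites per cell (21.8% and 9.68%). The first counts were near the background, and the median change was −0.16 over the 135 and −0.10 over all distal regions. Regions at 2-fold or more had a median Control level of 1.89 CPM and those at 1/2 or less one of 3.18 CPM. None of the 22 overlapped an annotated exon, 3 lay inside the member gene and 11 overlapped no gene.

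The Jun locus held 6 of the 22, among 13 distal regions, and none at 1/2 or less, against 18.6% and 13.8% of all distal regions. This was the highest such count of the 10 genes, and its difference from those shares was not tested. Of the 6, chr4:95014944-95015981 and chr4:95023202-95024149 lay close to the limit, at 1.02 and 1.07. The lowest Jun region, at −0.97, had −1.12 with all peaks of a library as the total. Without the cells of highest doublet score it had −1.11. The region with the largest change lay 26.0 kb downstream of the Jun start at chr4:95025651-95026719, inside the annotated gene Gm12694 but outside its exons. It held 73 sites in Control (0.623 CPM) and 1200 with the deletion (5.80 CPM), a change of 3.22 (2.75 to 3.77). Its level was 0.573 to 0.977 CPM in the Control-rich clusters 1, 6 and 10 and 3.30 to 7.53 in the MOF cKO clusters 0, 3 and 5. These clusters each hold almost only cells of a single library, so the values repeat the difference between libraries. Upstream of Jun, chr4:95083896-95084897 lay in an intron of Junos, an antisense gene on the strand opposite to Jun, and had 2.41 and 14.1 CPM (282 and 2927 sites), a change of 2.55 (2.30 to 2.81). The most accessible of the 6 in MOF cKO, chr4:95001112-95002023, lay 50.7 kb downstream, also in Gm12694, and had 3.62 and 21.2 CPM, a change of 2.55 (2.35 to 2.76). Outside the distal class, a region 11.3 kb downstream of Jun and near the start of Gm12703 had 116 and 1218 sites, a change of 2.57.

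At Fos, 27 distal regions ranged from −1.90 to 2.73. The highest, chr12:85519297-85520181, lay 45.8 kb downstream and carried both AP-1 elements shown above. It had 1.66 CPM from 195 Control sites and 11.02 from 2281 MOF cKO sites, a change of 2.73 (2.42 to 3.03). The lowest, chr12:85451612-85452658, lay 21.8 kb upstream of the Fos start in no gene. It had 36.3 CPM from 4257 Control sites and 9.71 from 2010 MOF cKO sites, a change of −1.90 (−2.01 to −1.79). In fibroblast-like cells the same region had 112 and 27 sites, a change of −2.70 (−3.60 to −1.78). In cluster 2 the change was −2.78 (−4.22 to −1.52) from 27 and 18 sites. In cluster 4 it was −2.03 (−5.10 to −0.07) from only 85 and 4 sites. Across epithelial clusters the region had 40.6, 35.9 and 22.2 CPM in 1, 6 and 10 and 7.89, 14.8 and 7.61 in 0, 3 and 5.

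At Atf3, 5 of 24 distal regions were at 2-fold or more, near the 18.6% of all distal regions. Region chr1:191189610-191190657, inside an Atf3 intron 6.79 kb from the nearest Atf3 start, had 2.63 and 12.9 CPM, a change of 2.30 (2.06 to 2.55). Region chr1:191123566-191124508 lies between Atf3 and Batf3, 59.3 kb from the start of the former and 25.7 kb from that of the latter, and had 1.22 and 7.02 CPM, a change of 2.52 (2.16 to 2.88). It was the highest for both genes. The lowest Atf3 region, chr1:191208589-191209527, had 187 and 90 sites, a change of −1.88 (−2.43 to −1.36). The lowest of Batf3, chr1:191138357-191139376, had 190 and 153 sites, a change of −1.13 (−1.60 to −0.69).

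For the other genes the highest distal values were 2.10 at Batf (chr12:85754389-85755322, in Flvcr2), 2.07 at Fosb (chr7:19338036-19338954), 1.97 at Fosl2 (chr5:32128629-32130271, 6.35 kb upstream) and 1.71 at Fosl1 (chr19:5429575-5430485, 17.5 kb upstream). Junb reached only 0.68 (chr8:84992830-84993726) and Jund 0.07 (chr8:70682030-70683127). The lowest were −1.54 at Batf (chr12:85656634-85657545, 10.8 to 3.73 CPM), −1.45 at Fosl2 (chr5:32198989-32199936), −1.44 at Jund (chr8:70666657-70667639), −1.18 at Fosb (chr7:19287000-19287830), −0.97 at Jun (chr4:95068012-95068970), −0.75 at Junb (chr8:84995452-84996473) and −0.43 at Fosl1 (chr19:5431765-5432597). With cells thinned to 5000 sites the lowest Fosb region had −0.06 and the lowest Jun region −0.53. Thinning leaves fewer sites, and these values were taken without a minimum of sites or an interval. Both Junb regions overlap exons of Hook2, and the Fosb region with the lowest value overlaps an exon of Rtn2. Jund had 3 of 6 distal regions at 1/2 or less and none at 2-fold or more, against 13.8% and 18.6% of all distal regions. Fosl1 and Junb had only 4 and 5 distal regions.

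**Figure D3:**
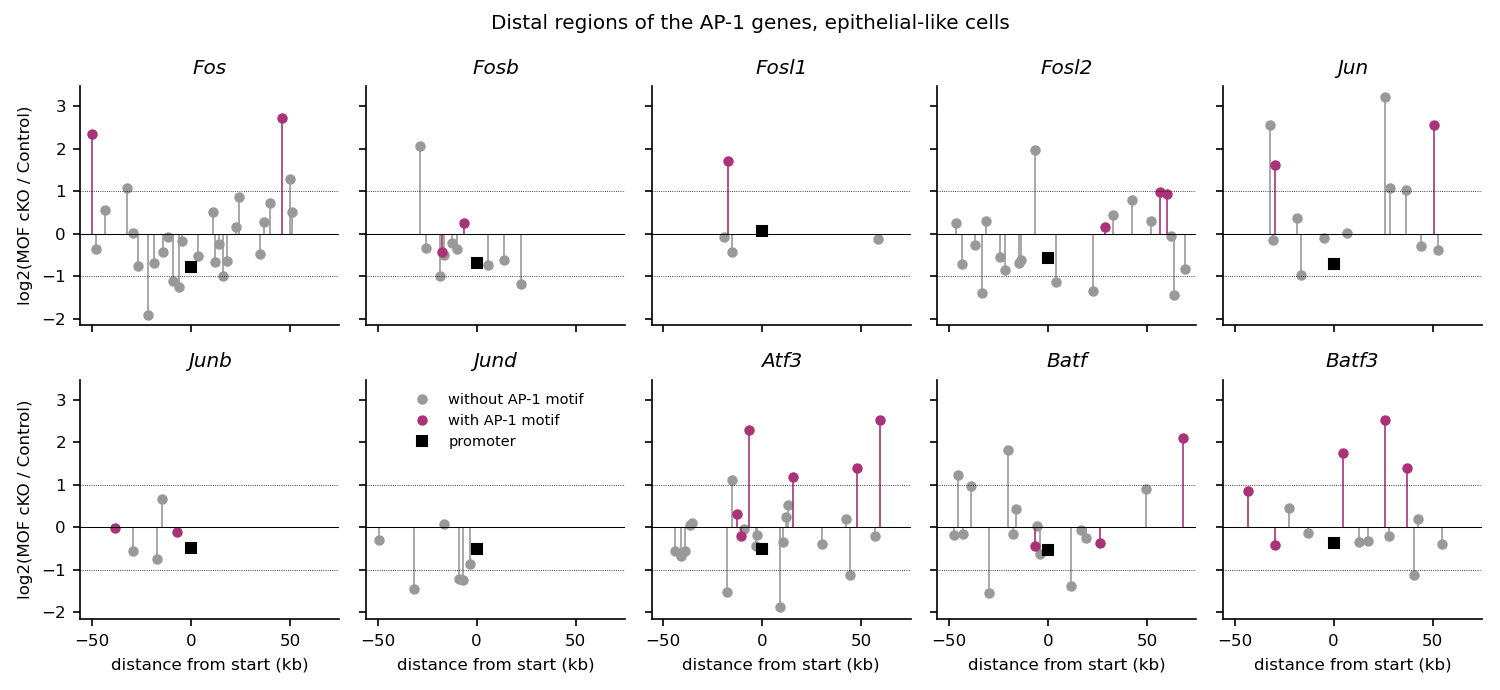
Log2 change in epithelial-like cells (vertical axis) of each shared distal region by its distance in kb from the nearest start of the gene (upstream to the left), 1 panel per gene; squares are promoters, purple points hold the AP-1 element in their centre, and dotted lines mark 2-fold and 1/2. On this scale Jun has 6 regions above the upper line and none below the lower. Jund has 3 below the lower and none above the upper. Of all distal regions 18.6% are at or above the upper line and 13.8% at or below the lower.

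In fibroblast-like cells, 134 of the 135 had at least 20 sites. Of these, 23 were at 2-fold or more (against 12.2% of all distal regions) and 6 at 1/2 or less, against 8.01%. These counts depend on the processing: with sites per cell they were 12 and 9, against 7.51% and 14.1% of all distal regions. With cells thinned to 5000 sites they were 10 and 1 of 52 regions, against 13.3% and 7.68%. Of the 22 epithelial regions at 2-fold or more, 11 (50%) were so in fibroblast-like cells, which is 47.8% of the fibroblast set. Over all distal regions the shares were 26.9% of 30890 and 44.8% of 18569. All 22 member regions had a fibroblast value, but only 28226 of the 30890 did, which lowers that 26.9%. Of the 17 epithelial regions at 1/2 or less, 2 (11.8%) were so in fibroblast-like cells, which is 33.3% of the fibroblast set. The shares over all distal regions were 14.6% of 22846 and 27.3% of 12217. Here 16 of the 17 and 21293 of the 22846 had a fibroblast value. The same 2 libraries gave both sets, and the difference between members and all regions was not tested. Region chr12:85666246-85667185, 19.95 kb upstream of Batf, went from 5.24 to 18.5 CPM in epithelial-like cells (1.82, 1.64 to 1.99) and from 0.957 to 5.88 CPM in fibroblast-like cells (2.62, 1.93 to 3.38). Its change was 3.003 in cluster 2 and 1.28 in cluster 4. Region chr12:85680870-85681729, 5.37 kb upstream of Batf, had 16 and 178 sites in fibroblast-like cells, a change of 2.83 (1.79 to 4.09), and 0.04 (−0.39 to 0.49) in epithelial-like cells. At the Jun region 50.7 kb downstream the fibroblast change was 2.04 (1.57 to 2.57), 0.95 in cluster 2 and 1.61 in cluster 4. Cluster values of these regions rest on fewer sites than those of the class and are given without intervals. The Jun region with the largest epithelial change had 11 and 65 fibroblast sites.

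To ask whether promoter and distal accessibility moved apart, the change of each gene's summed distal regions was subtracted from that of its promoter, a difference on which scaling has no bearing. In epithelial-like cells the promoter change was the lower for all 10 genes, against 82.8% of 15706 genes with both kinds of region. The median difference was −0.49 for the 10 and −0.49 for all genes. For Jun it was −1.68 (−1.76 to −1.60), at the 3.41 percentile of all genes: the promoter went down by the amount given above while the 13 distal regions together went from 4697 to 16187 sites, a change of 0.96. The distal regions nearest to Jun had changes of 0.02, −0.11, −0.97 and 0.36. Those at 2-fold or more all lay farther out, so the Jun difference depends on the 50 kb window. The Jun promoter held 72.8% of promoter and distal sites in Control and 45.5% in MOF cKO. Batf3 had −0.85 (−1.03 to −0.67), Batf −0.74, Atf3 −0.66 and Fosb −0.55. Fosl2 had −0.40, Junb −0.43, Fos −0.32 and Jund −0.18, and Fosl1, at −0.09 (−0.21 to 0.02), had an interval that included 0. In fibroblast-like cells the promoter change was the lower for 5 of the 10, against 53.4% of genes, and Jun had −0.13 (−0.28 to 0.02).

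**Figure D4:**
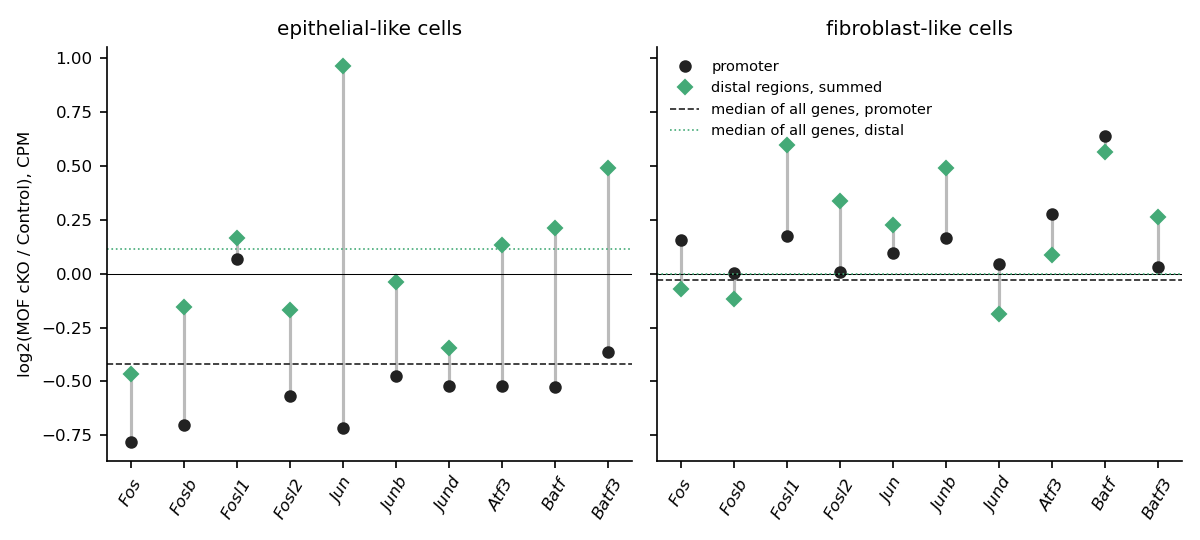
Log2(MOF cKO / Control) of the promoter (circles) and of the summed distal regions (diamonds) of each gene in epithelial-like (left) and fibroblast-like cells (right), with the medians of all genes as dashed and dotted lines. With the 50 kb window Jun has the widest gap in epithelial-like cells, from −0.72 at the promoter to 0.96 at the distal regions.

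The AP-1 element itself was searched within 150 bp of the centre of each distal region, as TGACTCA or TGAGTCA on either strand. It was in 11 of the 22 member regions at 2-fold or more (50%, exact interval 28.2 to 71.8), 13 of the 96 between the limits (13.5%, 7.41 to 22.0) and 0 of the 17 at 1/2 or less (0 to 19.5). Over all distal regions the shares were 49.6%, 11.4% and 3.03%, so the members followed the same order as the rest. Atf3 held 4 of the 11, Batf3 3 (2 of them the regions between both genes), Fos 2, Jun 2, Fosl1 1 and Batf 1. At Jun, 4 of the 6 regions at 2-fold or more lacked the element. TGACGTCA occurred in 1 of the 135 member regions (0.741%) and in 0.531% of all distal regions.

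**Figure D5:**
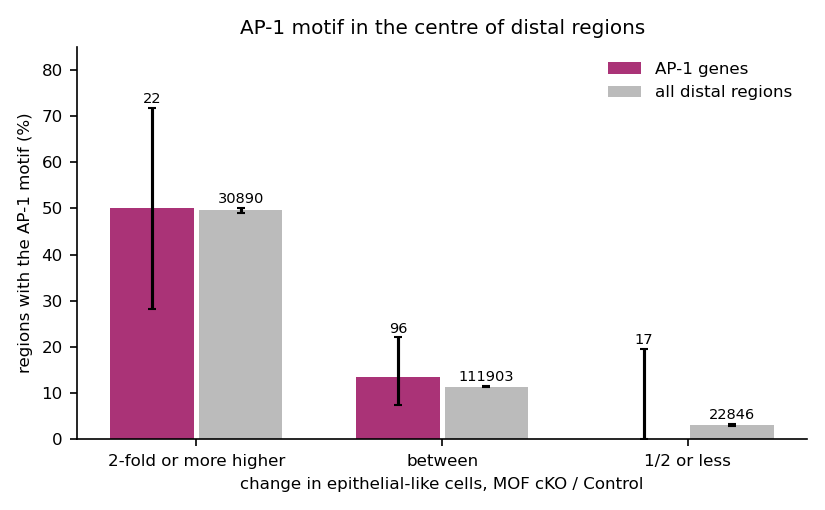
Percent of distal regions with the AP-1 element within 150 bp of their centre (vertical axis, from 0) by change in epithelial-like cells, for the AP-1 genes and for all distal regions; bars show exact 95% intervals and numbers above them count regions. The share is 50% and 49.6% at 2-fold or more, and 0 of 17 and 3.03% at 1/2 or less.

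Of the 355 regions, 82 (23.1%) were called only in MOF cKO and 23 (6.48%) only in Control, against 33.2% and 8.92% of all regions. They have no value in the other library, so no change was computed. The 3 with the most epithelial sites were chr7:19359290-19359791 at the starts of Cd3eap and Ppp1r13l within the Fosb window (MOF cKO, 2867 sites), chr7:19307275-19308070 in the Fosb gene 1.93 kb downstream of its start (MOF cKO, 1692 sites) and chr8:70681113-70681815, 17.5 kb upstream of the Jund start (Control, 1344 sites). These lay 36, 37 and 221 bp from a peak of the other library. Within 500 bp of such a peak were 24 of the 82 and 9 of the 23. Their median level was 0.834 CPM in MOF cKO and 1.73 CPM in Control. Of the distal ones, 17 of 55 called only in MOF cKO held the AP-1 element (30.9%, against 36.2% of all such regions) and 0 of 16 called only in Control (against 3.24%).

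4 lists of related genes were read at their promoters in epithelial-like cells. Across all promoters 85.8% were lower, with a median of −0.42, so the counts of the first 3 lists were near the background. Of 13 other AP-1 dimer partners, 12 were lower and none passed 2-fold either way, with a median of −0.51. They ran from Batf2 at 0.06 (−0.38 to 0.52) to Bach1, a partner of small Maf proteins, at −0.60. All 9 kinases upstream of AP-1 were lower, with a median of −0.53. Map3k1, which activates the JNK pathway, was at 1/2 or less, with 3840 and 2981 sites and a change of −1.19 (−1.29 to −1.09), and Mapk9, which encodes JNK2, had −0.36. Of 17 other immediate early genes and their regulators all were lower, with a median of −0.54, from Zfp36, an mRNA decay factor, at −0.09 to the orphan receptor Nr4a1 at −0.88.

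Known AP-1 targets of skin went both ways. Of 13 with a value among 15, 5 were at 2-fold or more, against 2.22% of all promoters, and none was at 1/2 or less, while 4 were lower and the median was 0.55. Sprr1b, a cornified envelope protein, had 200 and 2037 sites, a change of 2.53 (2.23 to 2.84), and Ivl, encoding involucrin, had 257 and 1182 sites and 1.38. The collagenase Mmp13 had 2.49, the stromelysin Mmp3 2.22 and the calcium-binding S100a9 1.09. These 5 had low Control levels, from 0.948 CPM (Mmp13) to 5.42 (S100a9). The others with a value had 2.86 (S100a8) to 24.1 CPM (Hbegf). Ccnd1, a cell cycle regulator, was the lowest at −0.73. In fibroblast-like cells 12 had a value, with a median of 0.18 against −0.03 over all promoters, and 3 were at 2-fold or more, against 1.88% of all promoters. Of these Mmp3 had 1.85 (1.08 to 2.84), Mmp9 1.5 (1.08 to 1.92) and Mmp13 2.60 (−0.14 to 8.12). Sprr1b had −0.18 with an interval from −2.14 to 2.21.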

How the data were processed

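The authors deposited unnormalized counts, cut sites by peak and cell barcode, for 1 Control and 1 MOF cKO library, made with cellranger-atac 2.0.0 on mm10, with peaks called per library. Both peak lists were merged, and regions with a peak from each library were kept as shared. Sites of each library were those in its own peaks, so in a shared region they need not cover the same bases. The part of this in the changes was not tested. Promoters and starts came from GENCODE vM21. Cells with at least 1000 sites were clustered on 28 singular vectors and named from marker promoters. Sites were summed per class and library, divided by the sites in shared regions of that class, and compared as log2 ratios where both libraries together had at least 20 sites. A side with no site was set to 1. A fragment gives a cut site at each end, so intervals used sites divided by 2. They were exact Poisson, binomial or conditional binomial, and for promoter minus distal differences a normal approximation of the log ratio, and cover counting error only. No test was made, since each genotype has 1 library. Named distal regions were the highest and lowest of each gene among those with at least 100 epithelial sites, and named list genes the highest and lowest promoters of each list under the same minimum. Other regions named for comparison were chosen after their values were seen, as were the list genes past 2-fold. The genes, lists and rules were chosen with earlier results of these data known. The calculation was tested on simulated data. Python 3.11.15 was used with numpy 2.4.6, scipy 1.17.1, pandas 2.3.3, scikit-learn 1.9.0, pysam 0.24.0 and matplotlib 3.10.9. Cells with high doublet scores were left in, except in an alternative.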

Additional observations from a re-analysis of the deposited data

Results flagged for a closer look

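The Batf promoter was the only one of the 10 whose change lay below 0 in epithelial-like cells and above 0 in fibroblast-like cells, with counting intervals that excluded 0 in both classes under all 4 scalings tried. The fibroblast-like minus epithelial-like difference of the log2 changes was 1.16. It rests on 487 and 598 epithelial and 203 and 493 fibroblast sites. With cells thinned to 5000 sites, which leaves fewer sites, the fibroblast-like change was 0.14 in place of 0.64, without an interval. It was 0.39 (−0.32 to 1.18) within fibroblast-like cluster 2. In epithelial-like cells the Control-rich clusters 1, 6, 8 and 10 had 2.99, 5.75, 3.09 and 4.32 CPM, and the MOF cKO clusters 0, 3, 5 and 13 had 2.95, 2.07, 3.69 and 0 CPM. The 0 of cluster 13 allows up to 4.42 CPM, and the value of cluster 8 rests on 4 sites. With 1 library per genotype the difference was not tested.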

How the results depend on the processing

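Of 110 recomputed summary values (counts, pooled changes and shares), 87 moved little, meaning within the counting interval for a change or share and within 1.5 times for a count. Some of them could not move. A change of scaling shifts all promoters alike, so the number of members below their median stays fixed. A promoter window of 100 bp gave the same changes for all 10 member promoters, also in the counts that follow. For the single member promoters 73 of 110 recomputed changes in epithelial-like cells and 66 of 80 in fibroblast-like cells stayed within their counting intervals, as did 152 of 171 for named distal regions. The pooled change of the 10 promoters in epithelial-like cells, −0.56, was −0.70 when scaled to every peak a library has, −0.40 by median of ratios, −0.38 by sites per cell and −0.50 with a promoter window of 1000 bp. The first 3 scalings shifted the median of all promoters as well, by −0.15, 0.16 and 0.18. The change of Fosl1 ran from −0.08 to 0.25 and that of Fos from −0.93 to −0.60. With sites per cell Junb, Jund, Atf3 and Batf had −0.30, −0.34, −0.34 and −0.34 in place of −0.48, −0.52, −0.52 and −0.52. Batf3, at −0.36, had −0.21 by median of ratios, −0.18 with sites per cell and −0.17 with thinned cells, and Junb had −0.21 with the 1000 bp window. In fibroblast-like cells the pooled change, 0.10, was 0.052 when scaled to every peak and −0.18 with sites per cell. The number of promoters lower there, 0, became 4, 2 and 9 under the 3 scalings, 2 with cells thinned to 5000 sites (where 2 also lay below the median of all promoters) and 1 with the 1000 bp window. Of all promoters 58.4% were lower there in the main setting, and 70.1%, 62.5% and 89.99% under the 3 scalings. The share was 54.1% with thinned cells and 58.1% with the 1000 bp window. Distal regions at 2-fold or more in fibroblast-like cells, 23, became 12 with sites per cell (where 9 were at 1/2 or less), 10 with thinned cells, 13 within 20 kb and 13 with at least 100 sites. Those at 1/2 or less, 6, became 1 with thinned cells, 0 within 20 kb and 3 with at least 100 sites. In epithelial-like cells, 8 of 74 distal regions within 20 kb were at 2-fold or more and 11 at 1/2 or less. The main setting had 22 and 17 of 135, and all distal regions 18.6% and 13.8%. The pooled promoter minus distal difference of −0.48 became −0.33. In fibroblast-like cells 73 regions entered within 20 kb, against 12.2% and 8.01% of all distal regions. With at least 100 sites 86 entered, against 10.0% and 5.62%. Searching whole regions put the AP-1 element in 72.7% of the member regions at 2-fold or more and in 63.4% of all such regions. Leaving out cluster 8, 10 or 13, chosen after the data were seen, moved no count by over 1.5 times. Cluster 10 had the highest median doublet score of the clusters, 0.86. Without it 23 member distal regions were at 2-fold or more and 18 at 1/2 or less in epithelial-like cells. The shares of all distal regions were then 21.012% and 9.2887%. The members' share at 1/2 or less thus lay above that of all distal regions, and this difference was not tested. No paired analysis was possible because each genotype has 1 library and no result comes from a test. Depth limits the small classes and distal regions of low level most. Thinned cells leave fewer sites in every region, and no interval was computed for thinned values.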
